A study of Mus musculus with 12 samples.

Results

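Fstl3, Prss57 and Palm are 3 neighbouring genes on mouse chromosome 10, and their expression was followed here array by array in normal and malignant thymocytes. They were 3 of the 19309 genes measured with a probe set of a single gene symbol. Each was represented by exactly 1 such probe set (10364494 for Fstl3, 10370644 for Prss57 and 10364502 for Palm), so no choice between probe sets was needed. The trio was chosen by its log2 values on these arrays, since all 3 genes were known to lie higher in Dnmt3a-deficient tumors than in control tumors. Their levels over the 3 groups are therefore given as a description, with standard errors and without p-values.

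The study profiled thymus RNA from FVB/N mice to compare MYC-induced T-cell lymphomas with and without Dnmt3a, the enzyme that places new methyl groups on cytosines of CG pairs. The 12 arrays comprised 3 of non-tumor thymocytes from wild-type mice aged 24 dpn, 5 of tumor thymocytes labelled wild type (called control tumors here) and 4 of Dnmt3a-deficient tumor thymocytes, both kinds of tumor taken at terminal disease. MYC was present when Dnmt3a was removed in the blood-forming compartment, and the control tumors are also described as MYC-induced, whereas no MYC is named for the normal thymocytes. The labels name no MYC construct, no driver of the Dnmt3a deletion and no pooling of animals. No age is given for the tumors, so whether normal thymocytes and tumors differed in age as well as in malignancy is not known. Nothing in the labels states that arrays of a group came from separate animals, so the p-values below measure only the spread between these arrays.

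Fstl3 encodes follistatin-like 3, a secreted glycoprotein that binds activins and myostatin and keeps them from their receptors. Prss57 encodes neutrophil serine protease 4, an enzyme of the azurophil granules that neutrophil precursors fill together with elastase (Elane) and proteinase 3 (Prtn3), whose genes lie farther along the same stretch. Palm encodes paralemmin, a lipid-anchored protein at the inner face of the plasma membrane that is held there by palmitoyl and prenyl groups.

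In the RefSeq table of GRCm38.p6 the annotated span of Prss57 overlapped those of both Fstl3 and Palm, while Fstl3 and Palm did not overlap each other. Whether the probes of one gene can read transcripts of an overlapping gene was not tested. A long noncoding RNA gene, Gm40713, also lay within the stretch and was not among the genes tested. Prss57 had no window in the RefSeq promoter table, so no sequence is shown for it. The 250 bases before the annotated start of Fstl3 and of Palm are shown because CG pairs, set in capitals, are where Dnmt3a acts. Both lie on the + strand, at chr10:79777024-79777273 for Fstl3 and chr10:79793322-79793571 for Palm in GRCm38.p6, with the sequence from RefSeq, 5′ to 3′.
Fstl3: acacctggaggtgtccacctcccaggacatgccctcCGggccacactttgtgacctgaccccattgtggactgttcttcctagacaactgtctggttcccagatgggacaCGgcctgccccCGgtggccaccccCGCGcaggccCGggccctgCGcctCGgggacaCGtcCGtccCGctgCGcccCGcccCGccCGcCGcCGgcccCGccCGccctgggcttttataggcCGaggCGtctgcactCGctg
Palm: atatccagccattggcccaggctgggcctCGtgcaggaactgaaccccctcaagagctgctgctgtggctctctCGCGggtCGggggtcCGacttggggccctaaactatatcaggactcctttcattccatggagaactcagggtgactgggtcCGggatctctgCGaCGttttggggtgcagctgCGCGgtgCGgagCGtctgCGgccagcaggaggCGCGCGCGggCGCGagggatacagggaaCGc
The Fstl3 window held 22 CG pairs and 71.2% G or C, and the Palm window held 20 CG pairs and 64.4% G or C. The median over the 32851 windows of this length in the RefSeq promoter table was 6 CG pairs, and 14.8% of windows held at least as many as Fstl3 and 17.9% at least as many as Palm. High CG content was common nearby, since 17 windows of 16 flanking genes held 3 to 39 CG pairs with a median of 15. Searched on both strands, GGGCGG occurred 4 times in the Fstl3 window and 0 times in the Palm window, against 32.7% of all windows with at least 1 match. TATAAA occurred 1 time for Fstl3 and 0 times for Palm (12.4% of windows), and CACGTG occurred in neither (6.02% of windows). GGGCGG and CACGTG contain CG pairs themselves, so their matches overlap the capitals. A match of letters is no evidence that a factor binds, and methylation was not measured on these arrays.

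The deposited values are log2 expression, and the median over all probe sets was 6.40 to 6.58 on every array. The 75th percentile was 8.50 to 8.60 in the 4 deficient tumors and in control tumors 1 and 2 but 8.13 to 8.30 on the other 6 arrays, so these 2 control tumors stood apart from the other 3. Control tumors 3 and 4 stood apart in another way, with a mean over 18 neutrophil markers of 7.35 and 7.43, against 5.49 to 5.71 in the other control tumors, at most 6.29 in normal thymocytes and 5.24 to 5.97 in deficient tumors. Cd3e, a defining T cell gene, lay between 10.35 and 11.75 on all arrays, and the mean over 14 T lineage markers was 11.02 to 11.11 in normal thymocytes, 9.84 to 10.47 in control tumors and 9.79 to 10.25 in deficient tumors. Of these markers, 7 of 14 were called lower in control tumors than in normal thymocytes and 8 of 14 in deficient tumors (11.3% and 19.0% of all genes), and none was called between tumor groups, where 8 of 14 had an unadjusted p under 0.05 (20.2% of all genes) and differences ran from -1.85 to 1.72. Single tumors were low for a co-receptor, with Cd8a at 7.60 in control tumor 5 and at 8.23 in deficient tumor 2, where Cd4 was 8.80. Dnmt3a itself was 9.63, 9.48 and 9.33 in normal thymocytes, 8.58, 8.52, 8.48, 8.19 and 9.57 in control tumors 1 to 5, and 7.33, 7.62, 7.19 and 7.53 in deficient tumors 1 to 4. All deficient tumors lay below all other arrays, and the difference from control tumors was -1.25 (SE 0.23, limma adjusted p = 0.0317). That call ended (adjusted p 0.0568 to 0.108) when any 1 normal array, control tumor 3 or deficient tumor 1, 3 or 4 was left out, and the direction held. The labels do not say which part of Dnmt3a was deleted or which part its probe set reads.

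Fstl3, Prss57 and Palm all had their highest group mean in Dnmt3a-deficient tumors, by 2.45- to 3.69-fold over control tumors. The 3 genes differed in where normal thymocytes stood. Fstl3 was alike in normal thymocytes and control tumors, Prss57 was lower in control tumors than in either other group, and Palm lay between these patterns. In whole-tissue RNA a change in the share of a cell type and a change in RNA per cell cannot be told apart.

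Fstl3, the activin antagonist, measured 6.78, 6.90 and 7.37 in normal thymocytes 1 to 3, 6.94, 7.66, 6.73, 6.77 and 6.81 in control tumors 1 to 5, and 8.39, 8.19, 9.23 and 8.65 in deficient tumors 1 to 4, on the log2 scale. Every deficient tumor was above every other array, with a gap of 0.53 to the highest control tumor, number 2, and of 0.82 to the highest normal array, while normal thymocytes and control tumors overlapped. The group means were 7.02 ± 0.31 (SD, n = 3), 6.98 ± 0.39 (n = 5) and 8.61 ± 0.45 (n = 4). Deficient tumors exceeded control tumors by 1.63 (SE 0.24, a 3.10-fold difference) and normal thymocytes by 1.60 (SE 0.27, 3.03-fold). Control tumors differed from normal thymocytes by -0.03 (SE 0.26), less than the spread within either group.

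Prss57, the granule protease, measured 6.96, 6.94 and 7.03 in normal thymocytes, 5.34, 6.24, 5.50, 5.70 and 6.78 in control tumors 1 to 5, and 6.83, 7.53, 8.94 and 7.88 in deficient tumors 1 to 4. All deficient tumors were above all control tumors, but only by 0.05 between deficient tumor 1 and control tumor 5, and all control tumors were below all normal arrays. Normal thymocytes lay close together, whereas deficient tumor 1 was slightly below them and deficient tumor 3 far above. The means were 6.98 ± 0.05 (SD, n = 3), 5.91 ± 0.59 (n = 5) and 7.80 ± 0.88 (n = 4). Deficient tumors exceeded control tumors by 1.88 (SE 0.37, 3.69-fold), the widest of the 3 differences, and normal thymocytes by 0.82 (SE 0.42, 1.77-fold). Control tumors differed from normal thymocytes by -1.06 (SE 0.40), which is 2.09-fold in size.

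Palm, the paralemmin gene, measured 7.41, 7.48 and 7.56 in normal thymocytes, 7.16, 7.77, 7.15, 6.51 and 7.21 in control tumors 1 to 5, and 7.76, 8.16, 9.16 and 8.75 in deficient tumors 1 to 4. Deficient tumor 1 was just under control tumor 2, so the tumor groups overlapped by that pair, and all deficient tumors were above all normal arrays by at least 0.21. Control tumor 4 was the lowest of the 12 arrays. The means were 7.48 ± 0.07 (SD, n = 3), 7.16 ± 0.45 (n = 5) and 8.46 ± 0.62 (n = 4). Deficient tumors exceeded control tumors by 1.29 (SE 0.28, 2.45-fold) and normal thymocytes by 0.98 (SE 0.31, 1.97-fold). Control tumors differed from normal thymocytes by -0.32 (SE 0.30).

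**Figure D1:**
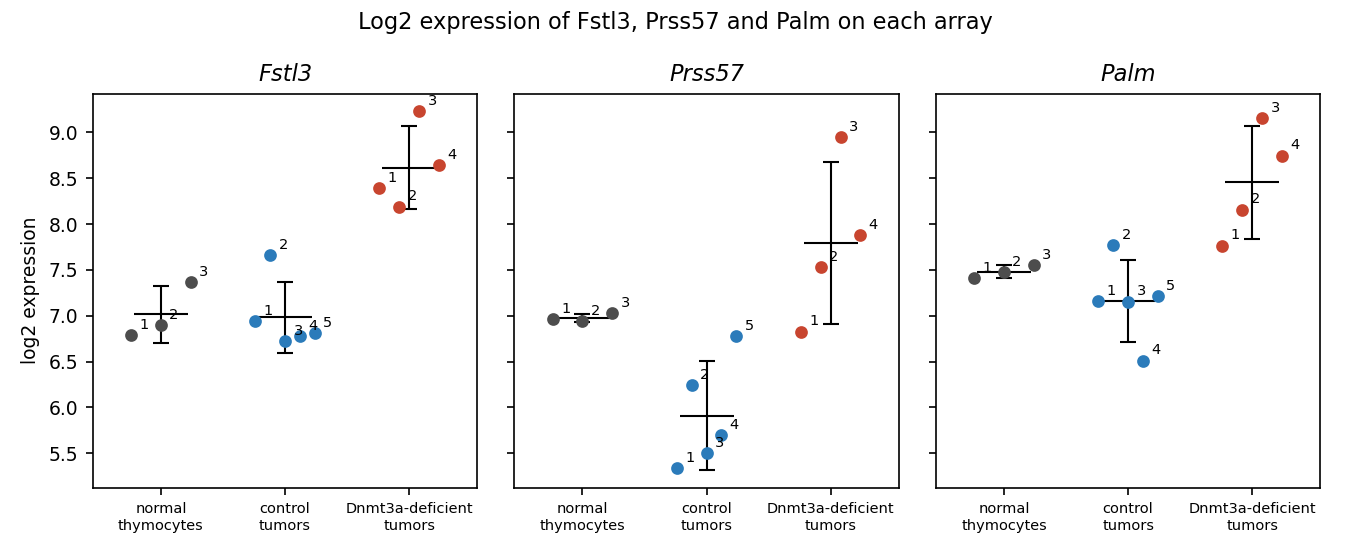
Log2 expression of Fstl3, Prss57 and Palm (vertical axis) on each array in the 3 groups; numbers beside points are replicate numbers, long bars are group means and error bars are ± 1 SD. Deficient tumor 3 is highest for all 3 genes (9.23, 8.94 and 9.16), and deficient tumor 1 meets the top of the control tumors for Prss57 (6.83 against 6.78) and Palm (7.76 against 7.77).

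Over all 19309 genes the deficient tumors lay above the control tumors with no overlap for 3.80%, which applies to Fstl3 and Prss57, and were higher by at least 1 log2 unit for 1.78%, which applies to all 3. They lay above normal thymocytes with no overlap for 23.0% of all genes, Fstl3 and Palm among them, and control tumors lay below normal thymocytes with no overlap for 14.0%, Prss57 among them. Ordered from the highest difference between the tumor groups, Prss57 ranked 21, Fstl3 46 and Palm 134. Since this difference led to the choice of the genes, these positions only describe them. Among the 19225 runs of 3 genes adjacent in RefSeq order, Fstl3, Prss57 and Palm formed the 1 run with all differences at or above 1 log2 unit. That count, too, only describes the trio, which was chosen as neighbours by this same difference. At the other end, 4 runs, 3 of overlapping Gimap genes on chromosome 6 and 1 of Cd5, A430093F15Rik and Cd6 on chromosome 19, lay at least 1 log2 unit lower throughout.

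The differences between tumor groups kept their direction for all 3 genes whichever array was left out. They ranged from 1.43 to 1.80 for Fstl3, 1.50 to 2.21 for Prss57 and 1.06 to 1.53 for Palm. Against control tumors 1 and 2 alone, the arrays whose upper quartile matched the deficient tumors, the differences were 1.31, 2.01 and 0.99, and against control tumors 3, 4 and 5 they were 1.84, 1.80 and 1.50. Without control tumors 3 and 4, where neutrophil markers were high, they were 1.48, 1.68 and 1.07. The smaller control value of Fstl3 against normal thymocytes had no stable sign, running from -0.24 to 0.28 over the other settings.

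Within the deficient tumors the 3 genes kept much of one order. Deficient tumor 3 was highest and deficient tumor 4 second for each of them. Deficient tumor 1 was lowest for Prss57 and Palm, and deficient tumor 2 was lowest for Fstl3. Among control tumors, number 2 was highest for Fstl3 and Palm and number 5 for Prss57, and the lowest was number 3 for Fstl3, number 1 for Prss57 and number 4 for Palm.

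Across the 12 arrays, Fstl3 and Palm had a Pearson correlation of 0.92 (Spearman 0.92), Prss57 and Palm 0.88 (0.82) and Fstl3 and Prss57 0.78 (0.67). These points share the group differences by which the genes were chosen. With each array taken as its deviation from its group mean, the correlations were 0.79 for Fstl3 and Palm, 0.73 for Prss57 and Palm and 0.57 for Fstl3 and Prss57. Over the 19246 adjacent gene pairs in the table, the median of that same within-group correlation was 0.07 and the 95th percentile 0.72. The highest of the 3 coefficients belonged to Fstl3 and Palm, which have Prss57 between them. At the edges of the trio, Rnf126 and Fstl3 had a correlation of 0.83 over the 12 arrays and 0.54 within groups, while Palm and Misp had -0.18 and -0.27.

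The 10 tested genes on each side of the trio were taken by position alone. None of the 20 was called between deficient and control tumors by limma at an adjusted p under 0.05, against 0.818% of all genes, and 7 had an unadjusted p under 0.05 (20.2% of all genes). Their median difference was 0.02, with a range from -0.75 to 0.93, and the median over all genes was -0.01. On the Palm side the next genes lay near 0. Misp, an actin-bundling protein of the mitotic spindle, differed by -0.02 (adjusted p = 0.959), Ptbp1, a splicing repressor, by 0.09 (adjusted p = 0.66) and Plppr3, a phospholipid phosphatase-related membrane protein, by -0.09 (adjusted p = 0.77). Misp and Plppr3 were dim, with group means of 5.51 to 5.54 and 6.15 to 6.37 against array medians of 6.40 to 6.58. Their small differences therefore say little, whereas Ptbp1 was bright, with group means of 11.51 to 11.60. The count of 0 flanking genes called moved with the setting. It was 2 of 20 without control tumor 1, 5 of 20 without control tumor 2 and 8 of 20 without both. Array weighting gave 7 of 20. Calls over all genes rose as well, from 158 to 3328 of 19309 with array weights, and also without control tumors 1 and 2, as listed below. In both settings the called share was larger among the flanking genes than among all genes, and that excess was not tested.

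**Figure D2:**
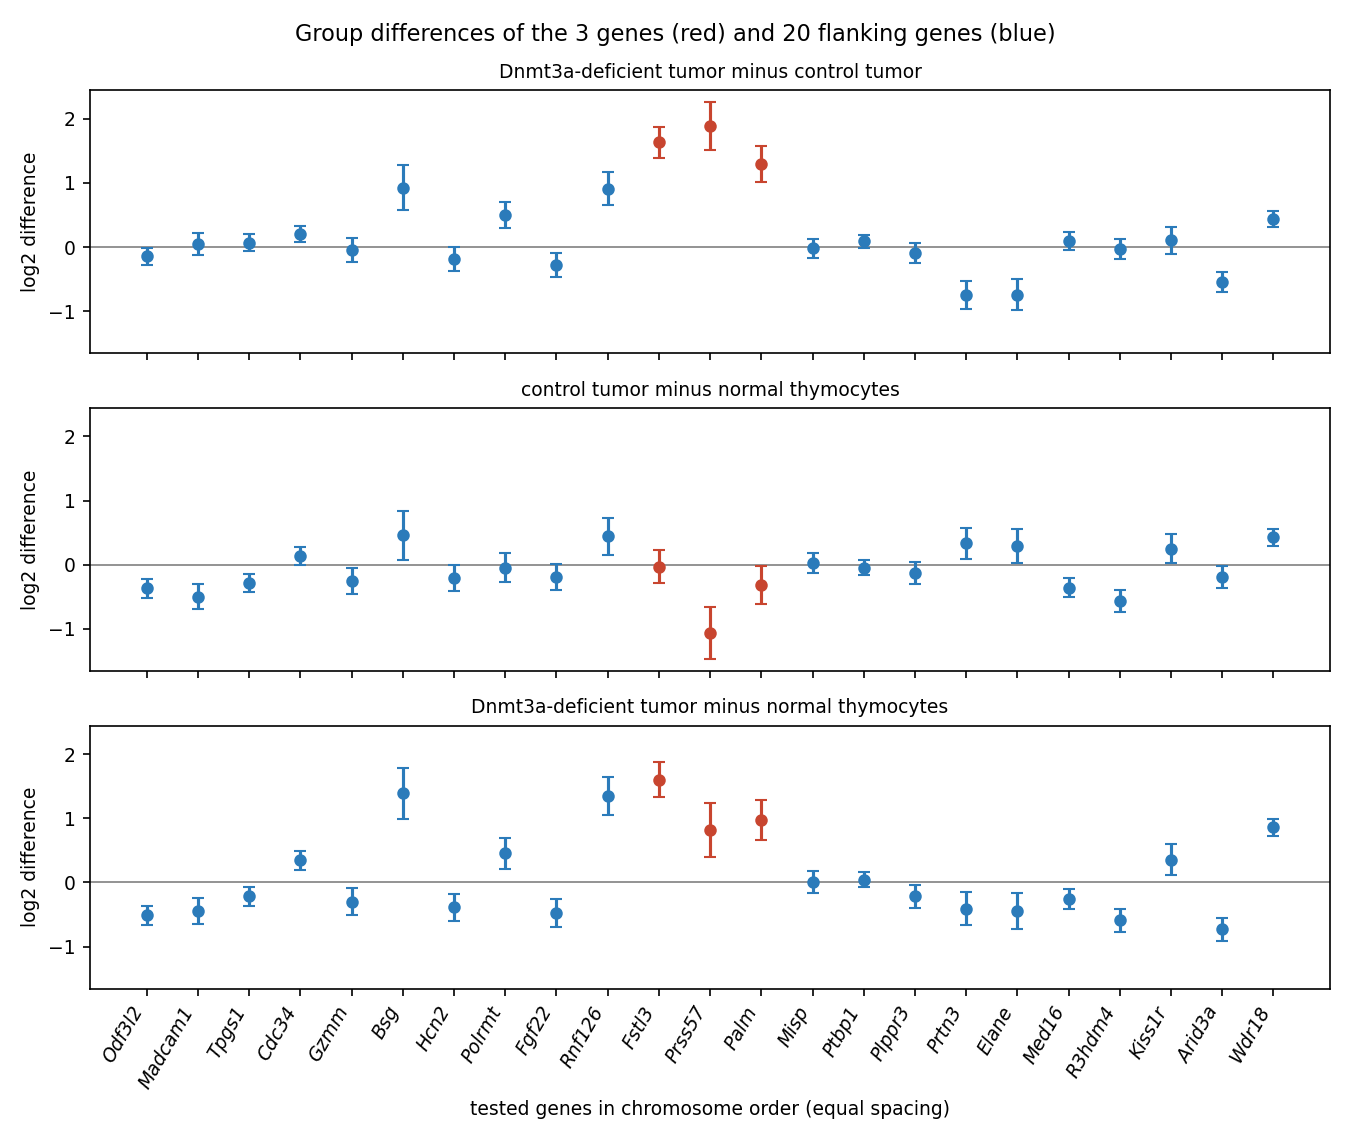
Log2 difference (vertical axis, error bars ± 1 SE) of the 3 genes in red and of 20 flanking genes in blue, in chromosome order with equal spacing, for the 3 comparisons of groups. In the top panel the 3 genes stand at 1.63, 1.88 and 1.29, Rnf126 and Bsg at 0.91 and 0.93, and the genes next to Palm near 0.

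On the Fstl3 side the nearest gene lay above 0. Rnf126, a ubiquitin ligase next to Fstl3, was 10.68, 11.01, 9.65, 9.57 and 10.05 in control tumors 1 to 5 and 11.25, 10.97, 11.21 and 10.98 in deficient tumors, and 9.82, 9.84 and 9.59 in normal thymocytes. Its tumor groups overlapped at control tumor 2, and the difference was 0.91 (SE 0.26, adjusted p = 0.107). It was called without control tumor 1 (1.03, adjusted p = 0.0452) and without control tumor 2 (1.11, adjusted p = 0.0173), without both (1.35, adjusted p = 0.000117) and with array weights (1.13, adjusted p = 0.00664).

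Bsg, the membrane glycoprotein basigin and a chaperone of lactate transporters, was 10.57 and 10.69 in control tumors 1 and 2, 8.95, 8.98 and 8.997 in control tumors 3 to 5, and 10.46 to 10.71 in deficient tumors. Control tumors 1 and 2 were thus at the level of the deficient tumors, and the others at that of normal thymocytes (9.12 to 9.25). Its difference between tumor groups was 0.93 (SE 0.35, adjusted p = 0.172), and against control tumors 1 and 2 alone it was -0.066 (adjusted p = 0.943), against control tumors 3 to 5 it was 1.59 (adjusted p = 9.68e-06), and without control tumor 2 it was 1.19 (adjusted p = 0.035). Polrmt, the mitochondrial RNA polymerase, differed by 0.50 (SE 0.21, adjusted p = 0.208; 0.66, adjusted p = 0.0444, without control tumor 2, and 0.83, adjusted p = 0.00139, without both 1 and 2) and Fgf22, a fibroblast growth factor, by -0.28 (SE 0.19, adjusted p = 0.415).

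Fstl3 was also higher in control tumors 1 and 2 (6.94 and 7.66) than in control tumors 3 to 5 (6.73 to 6.81), but it stayed below all deficient tumors there. In control tumor 1, where Bsg and Rnf126 were above all normal arrays, Palm at 7.16 was within the range of the other control tumors, and Prss57 at 5.34 was the lowest of the 12 arrays. In control tumor 2, Fstl3 and Palm were the highest of the control tumors, with Palm at 7.77 above deficient tumor 1. The part of the quartile difference between arrays in these values was not tested beyond the comparisons with control tumors 1 and 2 alone given above.

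**Figure D3:**
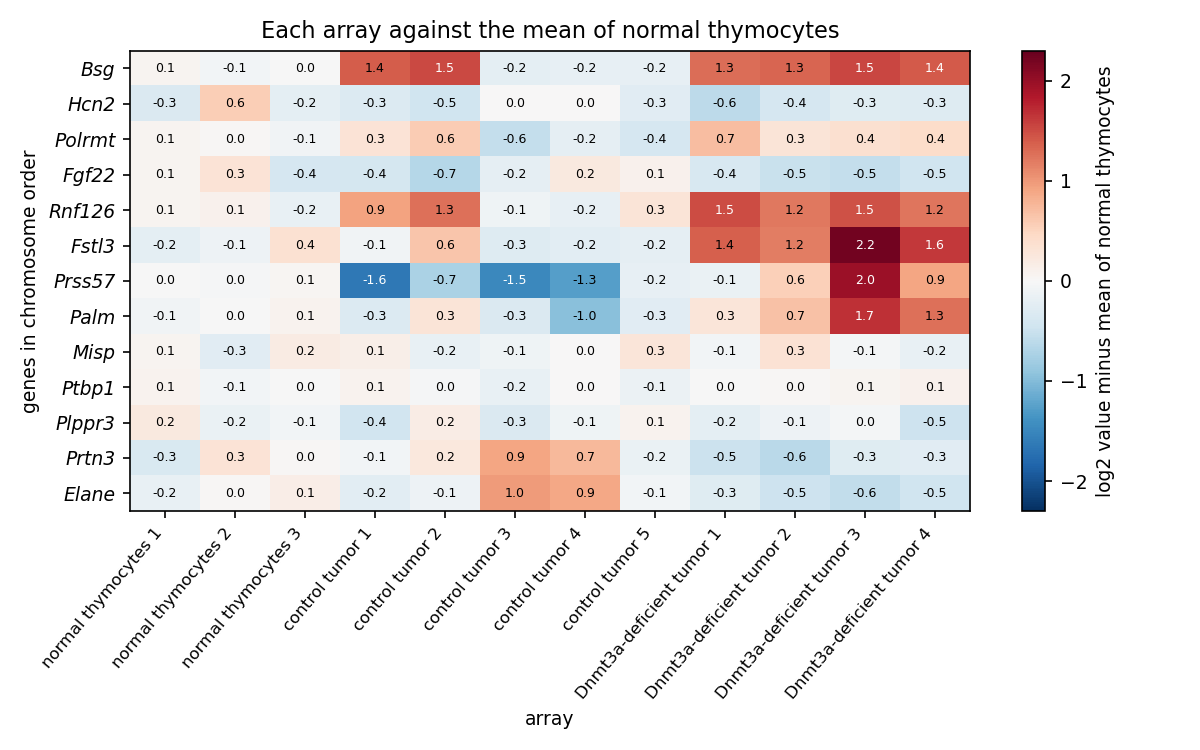
Log2 value on each array minus the mean of normal thymocytes, for 13 genes in chromosome order (rows) and 12 arrays (columns); red is higher and blue lower. Fstl3 is strongly red in all 4 deficient tumors and pale elsewhere, Prss57 is blue in the control tumors, and Bsg is red in control tumors 1 and 2 as well as in the deficient tumors.

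Against normal thymocytes some of the flanking genes were called. In control tumors 2 of 20 were called, against 24.4% of all genes, and 5 had an unadjusted p under 0.05 (35.8% of all genes). Wdr18, a ribosome assembly factor, rose by 0.43 (SE 0.13, adjusted p = 0.0275) and R3hdm4 fell by 0.57 (SE 0.17, adjusted p = 0.0264). Both calls ended without any 1 of the normal arrays, that of Wdr18 (adjusted p 0.055 to 0.082) also without control tumor 1 or 2, and that of R3hdm4 (adjusted p 0.0511 to 0.116) also without control tumor 3. Other scalings ended the call of Wdr18, at 0.27 with a second quantile normalization (adjusted p = 0.0953) and 0.24 with cyclic loess (adjusted p = 0.152), as did fitting only the groups compared (adjusted p = 0.0681) and leaving out control tumors 1 and 2 (adjusted p = 0.0907). R3hdm4 was -0.46 without control tumors 3 and 4 (adjusted p = 0.0998) and -0.33 without 3 to 5 (adjusted p = 0.196). In deficient tumors 6 of 20 were called, against 37.6% of all genes, and 9 had an unadjusted p under 0.05 (46.7%). Bsg rose by 1.39 (adjusted p = 0.0152), Rnf126 by 1.35 (adjusted p = 0.00314) and Wdr18 by 0.86 (adjusted p = 0.000264), while Arid3a, a DNA-binding transcription factor, fell by 0.73 (adjusted p = 0.00689), R3hdm4 by 0.59 (adjusted p = 0.0181) and Odf3l2, a sperm tail protein, by 0.51 (adjusted p = 0.0173). Without normal array 2 the calls of Bsg (adjusted p = 0.0513), Odf3l2 (0.0703) and R3hdm4 (0.0754) ended, leaving 3 of 20; without deficient tumor 3 that of R3hdm4 ended (0.0526), and without normal array 3 (0.0704) or deficient tumor 4 (0.0541) that of Odf3l2. Leaving out normal array 1 gave 9 of 20. Odf3l2 also lost its call with a second quantile normalization (-0.37, adjusted p = 0.0516) and with cyclic loess (-0.31, adjusted p = 0.0909).

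Beyond Plppr3 lie Prtn3 and Elane, which encode the granule proteases made together with the product of Prss57 in neutrophil precursors. Elane was 6.02, 6.23 and 6.34 in normal thymocytes, 5.96, 6.08, 7.17, 7.09 and 6.14 in control tumors 1 to 5, and 5.91, 5.72, 5.63 and 5.73 in deficient tumors. Prtn3 was 5.48 to 6.13 in normal thymocytes, 6.73 and 6.57 in control tumors 3 and 4, 5.67 to 6.07 in the other control tumors and 5.21 to 5.57 in deficient tumors. All deficient tumors lay below all control tumors for both genes, as for 2.35% of all genes, the opposite of Prss57. Neither difference passed the test, with Prtn3 at -0.75 (SE 0.22, adjusted p = 0.114) and Elane at -0.74 (SE 0.24, adjusted p = 0.136). Both were called without control tumors 1 and 2 (adjusted p = 0.0173 and 0.00489) and with array weights (adjusted p = 0.0185 and 0.0124), settings that also raised the calls over all genes. With 1 array left out each was called in 0 of 12 fits (limma adjusted p 0.0506 to 0.252 for Prtn3 and 0.0519 to 0.29 for Elane).

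Elane and Prtn3 were highest in control tumors 3 and 4, where the neutrophil calprotectin gene S100a8 was 9.09 and 8.99 against 4.59 to 7.31 on the other arrays. Mpo, the azurophil peroxidase, was 7.78 and 8.21 there and 5.36 to 6.50 elsewhere. Prss57 was 5.50 and 5.70 in the same control tumors, below all normal arrays. In deficient tumor 3, where Prss57 reached 8.94, Elane (5.63), Prtn3 (5.54), Mpo (6.02) and S100a8 (5.40) were below the values of control tumors 3 and 4. Ctsg, the azurophil protease cathepsin G, went the other way in that tumor, at 6.78 the highest of the 12 arrays, with 6.70 and 6.61 in control tumors 3 and 4 and 4.83 to 6.26 elsewhere. The neutrophil marker S100a9 was 8.75 and 8.69 in control tumors 3 and 4, 6.79 in deficient tumor 3 and 5.43 to 6.52 on the other arrays. Deficient tumor 3 also had the highest means of the 4 deficient tumors over the neutrophil markers (5.97), the myeloid progenitor markers (6.28) and an azurophil granule list of 11 genes (7.37). The mean over 10 myeloid progenitor markers was 6.06 to 6.26 in normal thymocytes, 5.86 to 6.81 in control tumors and 5.71 to 6.28 in deficient tumors. None of the 10, nor any of the 18 neutrophil markers, was called between the tumor groups (0.818% of all genes). An unadjusted p under 0.05 was found for 3 and 2 of them, against 20.2% of all genes.

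Among the other marker sets, the mean over 14 macrophage markers was 6.11 to 6.34 in normal thymocytes, 5.80 to 7.28 in control tumors and 6.37 to 7.10 in deficient tumors, with none called between tumor groups (1 with an unadjusted p under 0.05). None of 7 erythroid, 11 basophil and mast cell or 12 stromal and endothelial markers was called either (1, 3 and 1 with an unadjusted p under 0.05). Over all genes 0.818% were called and 20.2% had an unadjusted p under 0.05. Of 10 B cell markers 1, Cd79b, was called higher in deficient tumors, and of 12 thymic epithelial markers 1, Cldn4, against 0.590% of all genes. The part of these cell types in the levels of Fstl3, Prss57 and Palm was not tested.

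That azurophil granule list, which includes Elane, Prtn3 and Mpo, had none called between tumor groups and 4 with an unadjusted p under 0.05 (0.818% and 20.2% of all genes). Its median difference was -0.60, with -0.01 for all genes, so most of these genes lay below 0 while Prss57 lay at 1.88. Control tumors against normal thymocytes gave 1 of 11 called, against 24.4% of all genes: Srgn, the granule proteoglycan serglycin, which rose by 1.02 (adjusted p = 0.00153). In deficient tumors against normal thymocytes 3 of 11 were called, against 37.6% of all genes. Srgn rose by 1.28 (adjusted p = 0.000257) and Ctsc, the cathepsin that activates granule proteases, by 0.77 (adjusted p = 0.0209), while Cebpe, a transcription factor of granulocyte maturation, fell by 0.81 (adjusted p = 0.0338).

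Between tumor groups no protease of the lists passed the test, which only 0.818% of all genes passed. Prss57 itself, chosen by its difference, was not tested. Of 19 granzymes and mast cell proteases, carboxypeptidases included, none was called between tumor groups (median -0.05, range -1.08 to 1.22). An unadjusted p under 0.05 was found for 3 of the 19, against 20.2% of all genes. The smallest p-values belonged to the mast cell carboxypeptidase Cpa3 at -1.08 (adjusted p = 0.133) and the basophil protease Mcpt8 at -0.79 (adjusted p = 0.145). Of 32 further genes named Prss none was called, and 1 had an unadjusted p under 0.05 (20.2% of all genes). The median difference of the 32 genes was -0.09. Their differences ran from -0.60 for Prss30 (adjusted p = 0.109) to 0.29 for Prss54 (adjusted p = 0.277), against the 1.88 by which Prss57 was chosen. Against normal thymocytes, control tumors had 2 of these Prss genes called lower (11.3% of all genes), Prss34 at -0.57 (adjusted p = 0.0114) and Prss54 at -0.56 (adjusted p = 0.0199). Deficient tumors had 6 called lower and none higher (19.0% and 18.7% of all genes), among them Prss16, a protease of thymic epithelium, at -1.18 (adjusted p = 0.038). Of the 19 granzymes and mast cell proteases 2, Mcpt2 and Mcpt4, were called lower than in normal thymocytes in each kind of tumor (11.3% and 19.0% of all genes). They stood at -0.52 and -0.41 in control tumors and at -0.66 and -0.55 in deficient tumors (adjusted p 0.00581 to 0.0307). Both were dim in every group, with means of 3.47 to 4.14 for Mcpt2 and 4.65 to 5.20 for Mcpt4. The 25th percentile of the arrays was 5.09 to 5.32, so these shifts lie near the floor. Prss54, with group means of 4.69 to 5.25, and Prss30, with a mean of 4.92 in deficient tumors, were dim as well.

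For Fstl3 the pathway list held 54 genes of activin, bone morphogenetic protein (BMP) and TGF-beta signalling. None was called between tumor groups (0.818% of all genes), 7 had an unadjusted p under 0.05 (20.2% of all genes), and the median difference was -0.11. The smallest p-values belonged to Tdgf1, the Nodal co-receptor Cripto, at 0.70 (SE 0.17, adjusted p = 0.0726) and Chrd, the BMP antagonist chordin, at -0.46 (SE 0.13, adjusted p = 0.103). Without control tumor 2 Tdgf1 was called (adjusted p = 0.0217), and without control tumor 1 Chrd was (adjusted p = 0.0376). Both were called with array weights (adjusted p = 0.0169 and 0.0124) and without control tumors 1 and 2 (adjusted p = 0.00849 and 0.00311), and Tdgf1 also with median centring (adjusted p = 0.0458).

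Among the ligands that follistatin-like 3 can hold, Inhba, the activin A subunit, differed by -0.13 (adjusted p = 0.687) between tumor groups. Fst, which encodes follistatin itself and was named after its values were seen, was 5.84, 6.21 and 6.47 in normal thymocytes, 7.41, 7.70, 6.39, 6.10 and 6.03 in control tumors 1 to 5, and 5.83, 5.66, 5.72 and 5.53 in deficient tumors. All deficient tumors were below all control tumors, as for 2.35% of all genes, so the 2 related antagonists lay on opposite sides. The Fst difference of -1.04 (SE 0.32), the lowest of the 54 listed genes, did not pass the test (adjusted p = 0.116). Against control tumors 1 and 2 alone it was -1.87 (adjusted p = 0.00355), against control tumors 3 to 5 it was -0.49 (adjusted p = 0.0473), and with array weights it was -0.82 (adjusted p = 0.0365), all of which passed. With 1 array left out the Fst difference passed in 0 of 12 fits (limma adjusted p 0.0785 to 0.276).

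Against normal thymocytes more of this pathway was called. Control tumors had 2 of 54 higher and 10 lower, against 13.0% and 11.3% of all genes. Bmp7, a BMP ligand, rose by 1.63 (adjusted p = 0.00683), while Eng, the co-receptor endoglin, fell by 1.93 (adjusted p = 3.95e-05), Smurf1, a ubiquitin ligase for SMAD proteins and receptors, by 1.55 (adjusted p = 0.0047) and Id2, a SMAD target, by 1.45 (adjusted p = 0.0413). Deficient tumors had 5 higher and 13 lower, against 18.7% and 19.0%. Bmp7 rose by 2.60 (adjusted p = 0.000242), the receptors Bmpr1a by 2.03 (adjusted p = 0.0487) and Bmpr2 by 1.84 (adjusted p = 0.00857), and Smurf1 fell by 1.57 (adjusted p = 0.0039). Since both comparisons use the same 3 normal arrays, the calls they share are not independent.

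For Palm the list held 29 genes of the paralemmin family and of the enzymes that add palmitoyl and prenyl groups. Between tumor groups 1 was called higher and 1 lower, against 0.590% and 0.228% of all genes. An unadjusted p under 0.05 was found for 12 of the 29, against 20.2% of all genes, and the median difference was 0.23. The lower gene was Palmd, which encodes palmdelphin, the soluble member of the paralemmin family. Palmd measured 4.91, 5.09 and 5.63 in normal thymocytes, 7.48, 6.89, 9.20, 9.49 and 6.89 in control tumors 1 to 5, and 5.46, 5.49, 5.13 and 5.60 in deficient tumors. Every control tumor was above every other array, and deficient tumors overlapped normal thymocytes.

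Palmd fell by 2.57 from control to deficient tumors (SE 0.49, adjusted p = 0.038, 5.94-fold in size), which ranked 19305 of 19309, while Palm lay 2.45-fold higher. This call held without control tumor 1, 2 or 5 (adjusted p = 0.0285, 0.0106 and 0.0208) and ended without any other single array (0.0556 to 0.118). Without control tumors 3 and 4, where it was highest, the difference was -1.67 (adjusted p = 0.0275), and against control tumors 1 and 2 alone it was -1.77 (adjusted p = 0.0151). The call ended with a second quantile normalization (adjusted p = 0.0512) and with only the groups compared (adjusted p = 0.116). From normal thymocytes to control tumors Palmd rose by 2.78 (SE 0.53, adjusted p = 0.00187), a call kept whichever array was left out, and deficient tumors differed from normal thymocytes by 0.21 (SE 0.56, adjusted p = 0.799). The third member, Palm3, differed by 0.01 between tumor groups (adjusted p = 0.964) and was lower than in normal thymocytes, at -0.46 in control tumors (adjusted p = 0.0343) and -0.45 in deficient tumors (adjusted p = 0.0342).

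The gene called higher was Zdhhc23, a palmitoyltransferase, at 1.34 between tumor groups (SE 0.25, adjusted p = 0.0317), with 6.62 to 8.16 in control tumors and 8.47 to 8.94 in deficient tumors. That call held without control tumor 1, 2 or 5 (adjusted p = 0.0239, 0.00636 and 0.0461) and ended without any other single array (0.052 to 0.104). It also ended without control tumors 3 and 4 (1.08, adjusted p = 0.165), against control tumors 1 and 2 alone (0.79, adjusted p = 0.124) and with only the groups compared (adjusted p = 0.105). Against normal thymocytes, control tumors had 10 of the 29 genes called higher and 5 lower (13.0% and 11.3% of all genes), and deficient tumors 9 and 4 (18.7% and 19.0%). The palmitoyltransferase Zdhhc2 rose by 2.30 in control tumors (adjusted p = 3.76e-05) and by 3.16 in deficient tumors (adjusted p = 3.14e-06), and Zdhhc21 by 1.68 (adjusted p = 3.42e-05) and 2.06 (adjusted p = 6.45e-06). In control tumors Zdhhc15 fell by 1.45 (adjusted p = 0.00585), and in deficient tumors Zdhhc13 rose by 1.82 (adjusted p = 0.000176) and Zdhhc23 by 2.03 (adjusted p = 0.000107).

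**Figure D4:**
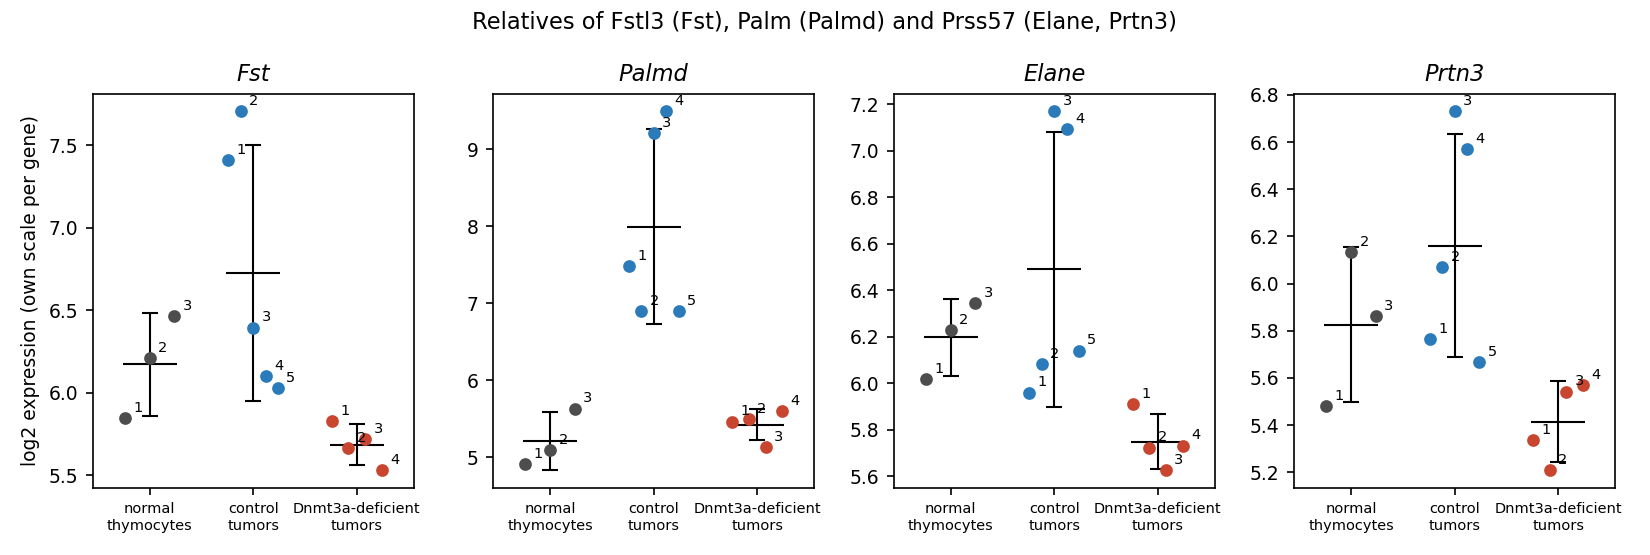
Log2 expression (vertical axis, a separate scale for each gene) on each array of Fst, a relative of Fstl3, of Palmd, a relative of Palm, and of Elane and Prtn3, granule proteases like Prss57; numbers are replicate numbers, long bars group means and error bars ± 1 SD. All 4 genes lie lower in every deficient tumor than in every control tumor, with Palmd at 5.13 to 5.60 against 6.89 to 9.49. Relatives without this pattern are not shown: Palm3 differed by 0.01 between tumor groups, and the tumor groups overlapped for Mpo and Ctsg.

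The genes most like each member over the 12 arrays, by Pearson correlation of the log2 values, were mostly on other chromosomes. For Fstl3 they were Pkn3 (0.96), Gins2, Recql4, Ldhd and Prcd (each 0.92). For Palm they were again Pkn3 (0.96), then Inka1 (0.95), Adck5 (0.94), Mrpl46 and Dsp (each 0.93). For Prss57 they were Itpk1 (0.95), Gadd45b (0.94), Camkv (0.94), Metrn (0.93) and Slco4a1 (0.91), of which Gadd45b is also on chromosome 10. These coefficients carry no test, since genes that separate the same groups correlate by that alone.

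Pkn3, a protein kinase related to protein kinase C, shared the order of the deficient tumors with Fstl3. It was 6.37 to 6.75 in normal thymocytes, 5.98 to 6.89 in control tumors, and 7.71, 7.58, 9.07 and 8.62 in deficient tumors 1 to 4. Gadd45b, a stress-response gene, shared with Prss57 its lower level in control tumors: it was 7.71 to 8.17 in normal thymocytes, 6.79 to 7.47 in control tumors, and 8.34, 8.73, 9.69 and 9.23 in deficient tumors. Over deviations from the group means, the correlation was 0.82 for Pkn3 with Fstl3, 0.90 for Pkn3 with Palm and 0.86 for Gadd45b with Prss57.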

How the data were processed

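Total RNA of thymus was hybridised to single-channel whole-transcript arrays. The authors deposited log2 expression per probe set. The submitters' processing notes name Affymetrix Expression Console and RMA, a method that corrects background, equalises the arrays and combines probes; no version is given in the sources used here. Every value is relative to the signal of its array. Groups and replicate numbers came from the sample titles, and 0 columns were left unused. Of 23858 probe sets, 20870 carried a single gene symbol, 1453 carried more and 1535 carried none; the set with the highest mean stood for each of 849 genes with several sets. RefSeq (GRCm38.p6) held 20822 of the single symbols.

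The 19309 genes were fitted in limma 3.58.1 (R 4.3.3) with 3 group means over all 12 arrays and eBayes (two-sided, Benjamini-Hochberg over all genes, called at adjusted p under 0.05), after a check on simulated data. SE is that of the moderated fit. The members and gene lists were chosen with earlier results of these data known. Named genes are the members, flanking genes called in any comparison or among the 3 nearest on a side, up to 4 called genes of a pathway list with the largest differences (the 2 with the smallest p where none was called), the 5 genes most correlated with each member, and fixed markers. Fst, Inhba, Palm3 and Ctsg were added outside these rules, and Cd79b and Cldn4 are the markers called between tumor groups. List genes without a single-symbol probe set, such as Palm2, Akap2 and Cfd, were not analysed here. Alternatives were other scalings, a filter on dim genes, the mean of probe sets, other variance models, array weights, fewer arrays and the replicate block. Leaving out control tumors 1 and 2, 3 and 4, or 3 to 5 was chosen after seeing the data.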

Additional observations from a re-analysis of the deposited data

Results flagged for a closer look

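In groups of 4 or 5 arrays, an array whose distance from its nearest neighbour was a large share of the group's range was looked for in 74 genes (148 groups), and 7 such arrays were found; chance marks about 1 in 20 groups.

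Control tumor 2 was set apart at the top for 4 genes: Fstl3 at 7.66 (next 6.94), Inka1 at 6.83 (next 6.17), Prcd at 7.21 (next 6.12) and the receptor Bmpr1a at 7.31 (next 4.68). Inka1 and Prcd were among the genes most correlated with Palm and Fstl3. Dnmt3a was set apart in control tumor 5, at 9.57 (next 8.58), within the range of normal thymocytes. Deficient tumor 2 was set apart at the bottom for the T cell co-receptor Cd8a, at 8.23 (next 10.98), and for Bmp7, at 9.32 (next 10.04), whereas Fstl3, Prss57 and Palm in that tumor were not set apart.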

How the results depend on the processing

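For Fstl3, Prss57 and Palm the differences between tumor groups kept their sign in all settings run. Settings other than leaving out 1 array gave 1.31 to 1.84, 1.68 to 2.10 and 0.99 to 1.51. Between deficient tumors and normal thymocytes the ranges with 1 array left out were 1.39 to 1.77, 0.44 to 1.14 and 0.74 to 1.21, and between control tumors and normal thymocytes -0.20 to 0.14, -1.28 to -0.92 and -0.47 to -0.16. Over the other settings these 2 comparisons gave 1.29 to 1.67, 0.57 to 0.91 and 0.60 to 1.08, and -0.24 to 0.28, -1.30 to -0.86 and -0.55 to -0.01. A second quantile normalization gave the lowest values for deficient tumors against normal thymocytes and took Palm from 0.98 to 0.60. Leaving out the dimmest 50% of genes moved the median of all genes from -0.01 to 0.13 between tumor groups and from -0.10 to 0.20 for deficient tumors against normal thymocytes. No depth is known for arrays, and their number limits precision.

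The count of genes called between tumor groups was unstable: 158 became 306 with median centring, 102 with a second quantile normalization, 1 with only the groups compared, 3328 with array weights, 4886 without control tumors 1 and 2, 6 without 3 and 4, 82 without 3, 4 and 5, and 16 to 1482 with 1 array left out. Against normal thymocytes, leaving out 1 array gave 3199 to 5074 genes in control tumors and 5409 to 7652 in deficient tumors. Array weights, or no control tumors 1 and 2, called 7 or 8 flanking genes, 5 or 10 activin and TGF-beta genes, 4 or 4 azurophil genes, 2 or 2 granzymes and mast cell proteases, 1 or 1 Prss genes and 10 or 14 genes of the paralemmin list. With 1 array left out these counts were 0 to 5, 0 to 3, 0 to 0, 0 to 1, 0 to 1 and 0 to 7. Median centring, or no control tumors 3, 4 and 5, called 1 activin and TGF-beta gene in place of 0. The paralemmin list had 1 called in place of 2 with a second quantile normalization, without the dimmest genes, without control tumors 3 and 4 and without 3, 4 and 5, and 0 with only the groups compared. Flanking genes called in control tumors against normal thymocytes were 1 with only the groups compared, 4 without control tumors 3, 4 and 5 and 0 to 3 with 1 array left out. In deficient tumors they were 3 to 9 with 1 array left out. The difference of Dnmt3a was -1.25 with only the groups compared (adjusted p = 0.105), -1.47 without control tumors 3 and 4 (adjusted p = 0.0768) and -1.37 to -1.02 with 1 array left out. Bsg changed sign, to -0.066, without control tumors 3, 4 and 5. The causes were not tested.

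Deviations from group means of the 10 same-numbered pairs of arrays correlated at -0.134 to 0.338, so the numbers were not taken as pairing. With the replicate number as a block, 104 genes were called between tumor groups in place of 158, and 1 flanking gene in place of 2 between control tumors and normal thymocytes.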
